A study of Mus musculus with 15 samples.

Results

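The normal step from common myeloid progenitor (CMP) to granulocyte-monocyte progenitor (GMP) was described in wild-type mouse bone marrow. Its members were the 8 libraries whose titles carry the wild-type label Trappc1WT, 4 of CMP and 4 of GMP, out of 15 libraries in the series. The other libraries came from Trappc1 knockout cells and were not compared here. Both groups carried the genotype label Trappc1WT and the treatment label none, and were sorted from bone marrow as lineage-negative, Sca1-negative, CD117-positive and CD34-positive cells. CMP were low and GMP high for CD16/32. Strain, age, sex and the number of animals behind a library are not given in the labels used here, so p-values measure the spread between libraries, which may be partly technical. The sort follows surface proteins and does not separate the committed progenitors that lie within each gate.

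CMP can still form erythrocytes, megakaryocytes, granulocytes and monocytes. GMP have lost the erythroid and megakaryocyte fates and form neutrophils and monocytes, and in most schemes also progenitors of basophils and eosinophils. The transcription factors C/EBP alpha and PU.1 are required for this step, whereas GATA1 and its partner FOG1 (Zfpm1) act for the erythroid and megakaryocyte fates. GMP also begin to build the primary, or azurophil, granule, which stores myeloperoxidase and serine proteases that are made in the endoplasmic reticulum (ER).

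Library totals were 61.3 to 112.4 M deposited units, which corresponds to 15.3 to 28.1 M fragments if 4 units stand for 1 fragment, and 14458 to 15890 genes were above 0. Levels are CPM, counts scaled to a common library size after TMM, given for libraries 1 to 4 in that order. Changes are log2 ratios of GMP to CMP from the edgeR quasi-likelihood fit. The value after ± is an approximate standard error, the size of the change divided by the square root of its F statistic. A gene was called where its Benjamini-Hochberg adjusted p was under 0.05. In a principal component analysis of the 8 libraries, PC1 held 59.9% of the variance and parted CMP from GMP. PC2 held 15.4% and parted libraries 1 and 2 from libraries 3 and 4 in each cell type, and the labels do not say what these numbers stand for. Lists of genes are described by counts and medians, and members below the count filter are left out of them. Since a low gene can pass that filter through the group in which it is high, a count over passing members is a description.

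Of 14120 genes tested, 1793 (12.7%) were called higher and 2325 (16.5%) lower in GMP, together 29.2%. The shares of 12.7% and 16.5% are the background for every list count below. Called or not, 2105 of the 14120 genes had every GMP library above every CMP library, and 2542 had every one below. A lack of overlap in a single gene was thus common. Among called genes, 298 were higher by 2-fold or more and 1380 lower by 2-fold or more, and 57 against 775 passed 4-fold. The median change was 0.46 among genes called higher and -1.26 among genes called lower, while the median over all tested genes was -0.0092. With upper quartile factors in place of TMM, which moved that median to -0.087, 1182 genes were higher and 2727 lower, so that 30.2% of called genes were higher in place of 43.5%. Without CMP library 3, 1083 genes were called higher. RNA from sorted populations was measured in bulk, so fewer cells of a type and less RNA per cell cannot be told apart in any value below.

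**Figure D1:**
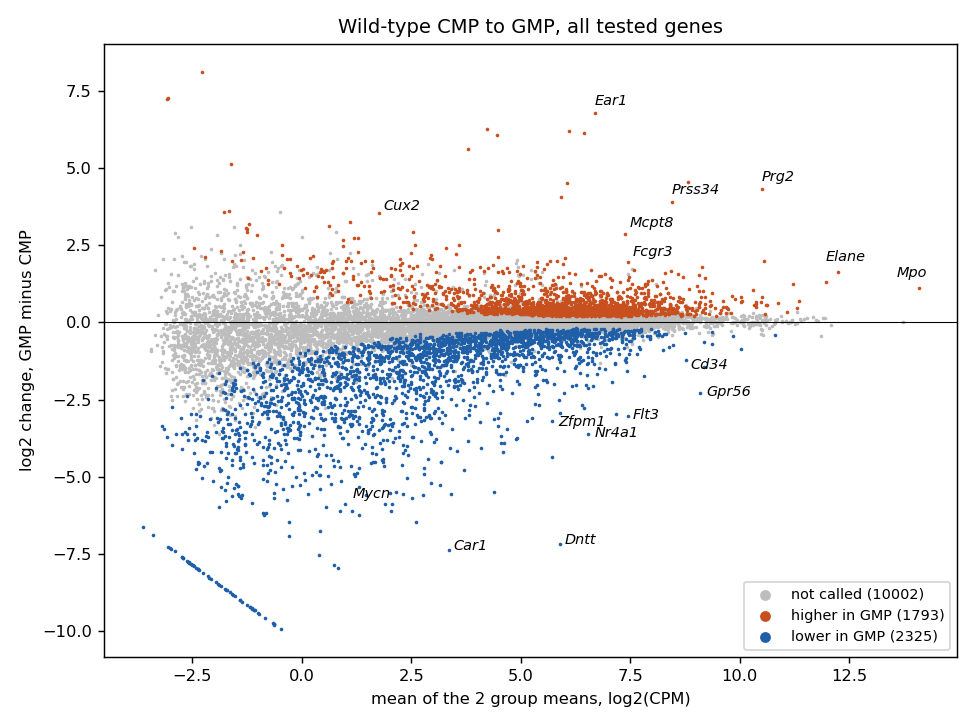
Each point is 1 of the 14120 tested genes, with the log2 mean of the group means in CPM on the x axis and the log2 change (GMP minus CMP) on the y axis. Genes called higher (1793) lie mostly near the zero line and genes called lower (2325) reach far below it, and the straight streak at lower left holds genes at 0 in every GMP library, whose fitted change depends on the prior count.

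The 12 genes with the largest rise, among those with at least 5 CPM in the higher group and no overlap between groups, were mostly granule genes of eosinophils and basophils. They were the eosinophil-associated ribonucleases Ear1 (6.78), Ear2 (6.27), Ear3 (6.17), Ear7 (6.13) and Ear6 (6.07), the lipoxygenase Alox15 (5.62), eosinophil peroxidase Epx (4.54), the major basic proteins Prg3 (4.49) and Prg2 (4.32), the chitinase-like Chi3l3 (4.04), the basophil protease Prss34 (3.90) and the homeobox gene Cux2 (3.54). Among them Ear1, Ear2, Ear3, Ear6, Ear7, Epx, Prg2, Prg3 and Chi3l3 lost their call with the library number as a block, at the adjusted p-values given below. Each of these was higher over libraries 1 and 2 alone and over libraries 3 and 4 alone, with unlike sizes. Epx changed by 2.42 and 7.33, Prg2 by 2.17 and 7.53 and Chi3l3 by 1.75 and 6.43 in that order. The reason for the lost calls was not tested. Those with the largest fall by the same measure were of mixed kinds, among them erythroid (Car1, Aqp1), lymphoid (Dntt), dendritic (Siglech) and stem cell (Esam, Mycn) genes. They included carbonic anhydrase Car1 (-7.36), the lymphoid DNA polymerase Dntt (-7.16), the homeobox gene Nkx2-3 (-6.47), the cation channel Trpc6 (-6.10), the guidance receptors Robo4 (-5.89) and Robo3 (-5.55), the adhesion molecule Esam (-5.68), the plasmacytoid dendritic lectin Siglech (-5.59), Mycn (-5.57), the water channel Aqp1 (-5.56) and the thromboxane receptor Tbxa2r (-5.51). Several of these rested on few fragments over the GMP libraries, such as Car1 (10.25), Nkx2-3 (11.5), Trpc6 (9.25), Robo4 (12) and Siglech (9.25). The sizes and order of such falls are therefore uncertain. Robo4 changed by -11.6 over libraries 1 and 2 alone and by -5.44 over libraries 3 and 4 alone.

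The genes of the sort gate checked the labels and are not a finding. Fcgr3, which encodes CD16, measured 98.3, 116, 36.7 and 38.7 CPM in CMP and 269, 236, 299 and 309 CPM in GMP (log2 change 1.94 ± 0.36, adjusted p = 0.00321). Every GMP library exceeded every CMP library, and CMP libraries 1 and 2 lay above CMP libraries 3 and 4. Fcgr2b, which encodes CD32, rose by 0.98 ± 0.12 (adjusted p = 0.000357), and the low Fcgr4 by 1.39 ± 0.34 (adjusted p = 0.0131). Cd34 measured 519, 575, 647 and 682 CPM in CMP and 324, 310.4, 214 and 202 CPM in GMP (log2 change -1.20 ± 0.17, adjusted p = 0.000727), lower in GMP although both gates ask for CD34. Kit, which encodes CD117, changed by -0.37 ± 0.09 (adjusted p = 0.0137). Ly6a, which encodes the Sca1 that both gates exclude, measured 11.7, 11.7, 33.3 and 42.9 CPM in CMP and 1.86, 1.54, 5.49 and 6.74 CPM in GMP (log2 change -2.66 ± 0.59, adjusted p = 0.00824), lower in every GMP library.

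A few markers of cells outside the gates were read in each group. The B cell markers Cd79a and Ms4a1 summed to 3.54 to 6.32 CPM in CMP and 1.77 to 3.18 CPM in GMP, and the 3 T and NK cell markers Cd3e, Cd3d and Ncr1 to 3.91 to 6.41 and 0.238 to 0.631 CPM. The 3 macrophage markers Emr1, C1qa and Vsig4 summed to 5.17 to 6.19 CPM in CMP and 10.4 to 20 CPM in GMP. Of the 4 stromal markers Col1a1, Cxcl12, Lepr and Cdh5, Cxcl12 carried most of the signal, at 12.2 and 15.2 CPM in CMP libraries 1 and 2 and 1.19 and 0.767 CPM in CMP libraries 3 and 4. The late neutrophil markers Retnlg and Mmp8 summed to 3.63 to 10.2 CPM in CMP and 4.15 to 13.9 CPM in GMP. Retnlg measured 0.138, 0.265, 6.72 and 7.07 CPM in GMP, high in libraries 3 and 4, where several late neutrophil genes described below were also high. Mmp8 did not follow it, at 3.53, 4.67, 8.98 and 8.01 CPM in CMP and 5.06, 3.88, 5.7 and 6.79 CPM in GMP. In libraries 3 and 4 Mmp8 was lower in GMP than in CMP. The part of such cells in the results below was not tested.

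Trappc1, the gene studied in the series, was expressed in every library and rose. Its protein belongs to the core of TRAPP, a tether for vesicles that travel from the ER to the Golgi (ENSMUSG00000049299.14, chromosome 11, 69323980 to 69325793, plus strand, GENCODE M21 on GRCm38). It measured 18.2, 26.4, 18.8 and 24.8 CPM in CMP and 41.1, 36.6, 30.3 and 32.7 CPM in GMP (log2 change 0.67 ± 0.15, adjusted p = 0.00802), higher in every GMP library than in any CMP library. Of 14 tested TRAPP subunits 4 rose and 0 fell, with a median change of 0.25, and 8 rose in a fit with the library number as a block. With upper quartile factors 3 rose, and with 1 library left out 3 to 5 rose. The other subunits called were Trappc4 (0.32 ± 0.10, adjusted p = 0.0304), D030016E14Rik (0.42 ± 0.09, adjusted p = 0.00849) and Trappc2l. The call of Trappc4 was lost without CMP 1 (0.0746), CMP 2 (0.0603), CMP 3 (0.0901), GMP 1 (0.0676), GMP 2 (0.0549), GMP 3 (0.0715) and GMP 4 (0.0693). Trappc2l rose from 17.5, 17.8, 17.6 and 21.5 to 31.2, 26.3, 32.5 and 31.6 CPM (log2 change 0.71 ± 0.11, adjusted p = 0.00113).

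The transcription factors of granulocyte and monocyte fate did not move as a group. Of 42 tested, 8 rose and 17 fell, with a median of -0.20, and the risers were led by the C/EBP family. Over all tested genes 12.7% were called higher and 16.5% lower. The list is broad and shares members with others. Egr1 and Junb also count among immediate early genes, and Mycn among stem cell genes. Cebpd measured 51.7, 49.3, 33.2 and 39.2 CPM in CMP and 86.9, 81.5, 92.1 and 90.4 CPM in GMP (log2 change 1.02 ± 0.13, adjusted p = 0.000545). Cebpb, the C/EBP factor of demand-driven granulocyte formation, measured 68.1, 50.8, 45.4 and 36.3 and 112, 119, 71.5 and 89.6 CPM (log2 change 0.96 ± 0.21, adjusted p = 0.0069). In both genes every GMP library lay above every CMP library. Sfpi1, which encodes PU.1, rose by a smaller amount, 0.37 ± 0.09 (adjusted p = 0.0107), from 213, 206, 218 and 249 to 264, 276, 291 and 316 CPM.

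The remaining risers lost their call when single libraries were left out. Cebpa, which encodes C/EBP alpha, measured 274, 321, 217 and 219 CPM in CMP and 387, 399.6, 329 and 316 CPM in GMP (log2 change 0.47 ± 0.14, adjusted p = 0.029), and CMP library 2 lay above GMP library 4. Cebpe, a C/EBP factor of late granulocytes, measured 62.6, 59.3, 14.4 and 15.9 CPM in CMP and 84.7, 81.9, 139 and 143 CPM in GMP (log2 change 1.56 ± 0.48, adjusted p = 0.0357; adjusted p = 0.187 with the library number as a block). The repressor Gfi1, which favours neutrophils over monocytes, measured 151, 135, 53.7 and 55.8 and 172, 183, 208 and 219.7 CPM (log2 change 0.99 ± 0.32, adjusted p = 0.0443; adjusted p = 0.131 with the block). Both genes were low in CMP libraries 3 and 4 and closer to the GMP level in CMP libraries 1 and 2. Myb, a factor of proliferating progenitors, rose by 0.40 ± 0.11 (adjusted p = 0.0247), and Id1, an inhibitor of E proteins, by 1.05 ± 0.29 (adjusted p = 0.0209). Left out 1 at a time, libraries ended these calls as follows, with the adjusted p without each in brackets. Cebpa was lost without CMP 3 (0.0849), CMP 4 (0.0598), GMP 1 (0.0745) and GMP 2 (0.0697). Cebpe was lost without CMP 3 (0.0714), CMP 4 (0.103), GMP 1 (0.0758), GMP 3 (0.0829) and GMP 4 (0.0817). Gfi1 was lost without CMP 3 (0.0957), CMP 4 (0.113), GMP 1 (0.0889), GMP 2 (0.0714), GMP 3 (0.0909) and GMP 4 (0.0935). Myb was lost without CMP 3 (0.0772), GMP 1 (0.0538), GMP 2 (0.0503), GMP 3 (0.0586) and GMP 4 (0.0545), and Id1 without CMP 1 (0.0516), GMP 3 (0.06) and GMP 4 (0.0596). The number of regulators that rose fell from 8 to 4 without CMP library 3 or GMP library 1, 3 or 4, and to 5 without GMP library 2.

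Some factors of monocyte and dendritic fate were not called and others fell. Irf8, which directs monocytes and dendritic cells, measured 439.9, 439, 625 and 643 CPM in CMP and 510.2, 533, 449 and 438 CPM in GMP (log2 change -0.15 ± 0.14, adjusted p = 0.466). Its change was 0.24 over libraries 1 and 2 alone (adjusted p = 0.0469) and -0.51 over libraries 3 and 4 alone (adjusted p = 0.00267), and the difference between them was not tested. Klf4, a factor of monocytes, measured 45.9, 34.2, 48 and 49.8 CPM in CMP and 53.6, 53.1, 56.7 and 60.3 CPM in GMP, higher in every GMP library, and changed by 0.33 ± 0.12 (adjusted p = 0.0602; adjusted p = 0.0181 with the block), and it passed without CMP 4 (0.0411). Egr1, an early response factor that favours monocytes, fell from 334, 292, 395 and 359 to 118, 129.6, 88.9 and 81 CPM (log2 change -1.72 ± 0.16, adjusted p = 7.36e-05), and its corepressor Nab2 fell (-0.96 ± 0.11, adjusted p = 0.000268). The inhibitors of E proteins Id2 (-1.66 ± 0.16, adjusted p = 9.48e-05) and Id3 (-4.02 ± 1.01, adjusted p = 0.0145) fell, and so did the dendritic factor Batf3 (-4.46 ± 0.67, adjusted p = 0.00108). Id3 rested on 65 fragments over the CMP libraries and 3.25 over the GMP libraries. The 95% interval of its fold from counting alone was 6.04 to 91.8. Among the MYC genes, Mycn fell from 11.4, 9.1, 15 and 17.7 CPM to 0.206, 0.168, 0.436 and 0.27 CPM (log2 change -5.57 ± 0.35, adjusted p = 7.5e-06). Myc itself fell (-0.44 ± 0.10, adjusted p = 0.0108) and the factor Runx3 (-0.42 ± 0.08, adjusted p = 0.00305).

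The transcription factors of the erythroid, megakaryocyte and mast cell lines fell as a rule, with 18 of 24 lower, 2 higher and a median of -0.98. Zfpm1, which encodes the GATA1 partner FOG1, measured 81.7, 98.5, 106 and 92.3 CPM in CMP and 10.7, 13.3, 8.78 and 8.78 CPM in GMP (log2 change -3.19 ± 0.15, adjusted p = 2.07e-06). Gfi1b, the erythroid and megakaryocyte counterpart of Gfi1, measured 18.5, 20.1, 31.7 and 29.9 and 3.58, 3.55, 2.2 and 3.12 CPM (log2 change -3.01 ± 0.23, adjusted p = 2.2e-05). Both were far lower in every GMP library. The erythroid factor Klf1 fell (-1.76 ± 0.21, adjusted p = 0.00034), and Gata1 fell (-1.29 ± 0.19, adjusted p = 0.000905), from 14, 14.7, 20.4 and 23.1 to 6.78, 6.16, 8.19 and 8.42 CPM. Gata2, which acts in stem cells and mast cells, measured 145, 132, 200.3 and 199.8 CPM in CMP and 99, 95.2, 91 and 86.4 CPM in GMP (log2 change -0.87 ± 0.14, adjusted p = 0.00156). The partners of the stem cell factor complex fell too, Tal1 (-1.15 ± 0.08, adjusted p = 1.51e-05), Erg (-1.06 ± 0.09, adjusted p = 4.23e-05) and Lmo2 (-0.73 ± 0.14, adjusted p = 0.00356). The corepressor Cbfa2t3 fell (-0.99 ± 0.14, adjusted p = 0.000919). The members that rose were Mitf, a factor of mast cells (0.52 ± 0.12, adjusted p = 0.00992), and the ETS factor Fli1 (0.31 ± 0.09, adjusted p = 0.0338). The call of Fli1 was lost without CMP 3 (0.0969), CMP 4 (0.0624), GMP 3 (0.082) and GMP 4 (0.0903). Nfe2, which drives platelet release, changed by -0.12 ± 0.08 (adjusted p = 0.27).

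**Figure D2:**
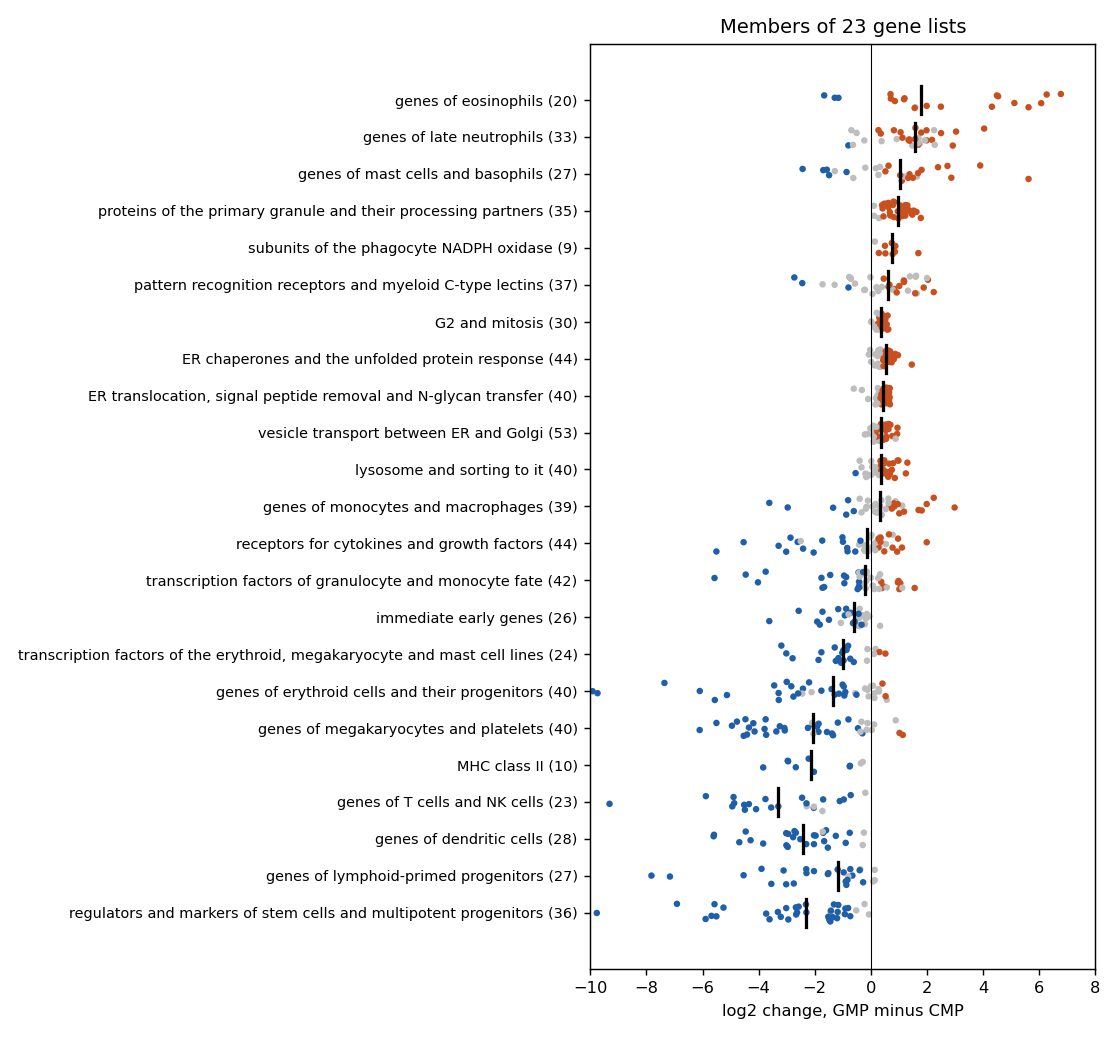
Each point is a tested member of a gene list, with its log2 change (GMP minus CMP) on the x axis and orange or blue where it was called higher or lower; the black bar is the list's median and the number in brackets the members tested. Eosinophil (median 1.79), late neutrophil (1.58) and primary granule (0.96) genes lie to the right, and stem cell (-2.31), dendritic (-2.41) and megakaryocyte (-2.06) genes to the left.

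Genes of stem cells and multipotent progenitors fell together. Of 36 tested, 32 fell and 0 rose, with a median of -2.31. Hlf, a factor that maintains stem cells, measured 51.4, 64.6, 86 and 75.6 CPM in CMP and 10.2, 9.84, 12 and 12.8 CPM in GMP (log2 change -2.63 ± 0.17, adjusted p = 7.69e-06). The homeobox factor Meis1 measured 66, 60.2, 80.9 and 73.6 and 16.2, 15.7, 12.6 and 12.1 CPM (log2 change -2.31 ± 0.13, adjusted p = 4.53e-06). Angpt1, a ligand that keeps stem cells quiescent, measured 145, 166, 144 and 131 and 23.4, 26.2, 20.8 and 21.4 CPM (log2 change -2.67 ± 0.10, adjusted p = 1.37e-06). In these genes the groups lay far apart, and the spread within a group was small against the change. Gpr56, an adhesion receptor of stem cells, fell from 723, 863, 1051 and 977 to 191, 209, 171 and 164 CPM (log2 change -2.30 ± 0.13, adjusted p = 4.59e-06). Esam fell (-5.68 ± 0.39, adjusted p = 1.23e-05).

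Of 44 tested receptors for cytokines and growth factors, 11 rose, 15 fell and 18 were not called, with a median of -0.12. The number that rose was 6 without CMP library 4 or GMP library 3, and 7 with upper quartile factors. Csf2ra, the ligand-binding chain of the GM-CSF receptor, measured 115, 78.3, 104 and 98.2 CPM in CMP and 157, 166, 219.8 and 233 CPM in GMP (log2 change 0.97 ± 0.16, adjusted p = 0.00153). Ifngr1, the interferon gamma receptor chain, measured 243, 247, 152 and 165 and 369, 368, 487 and 517 CPM (log2 change 1.11 ± 0.19, adjusted p = 0.00193). The TNF receptor Tnfrsf1b measured 128, 139, 98 and 92.3 and 193, 186, 206 and 198 CPM (log2 change 0.78 ± 0.13, adjusted p = 0.00187). For these 3 genes no GMP library fell within the range of CMP. The TNF receptor Tnfrsf1a rose by 0.35 ± 0.06 (adjusted p = 0.00309) and the interleukin 21 receptor Il21r by 0.64 ± 0.11 (adjusted p = 0.0025).

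The G-CSF receptor Csf3r, which drives neutrophil formation, rose by a small amount, from 184, 188, 162 and 153 CPM to 192, 202, 218 and 217 CPM (log2 change 0.27 ± 0.09, adjusted p = 0.0422). Csf2rb, the signalling chain shared by the receptors for GM-CSF, interleukin 3 and interleukin 5, changed by 0.48 ± 0.15 (adjusted p = 0.041), and its near copy Csf2rb2 makes the split of its reads uncertain. Il17rb rose by 0.94 ± 0.24 (adjusted p = 0.0169), and Il5ra, the interleukin 5 receptor of eosinophils, rose from 1.69, 1.96, 0.394 and 0.801 CPM to 2.51, 2.71, 6.74 and 7.24 CPM (log2 change 1.99 ± 0.54, adjusted p = 0.0214; adjusted p = 0.109 with the block). Csf3r lost its call without CMP 3 (0.117), CMP 4 (0.0812), GMP 2 (0.0695), GMP 3 (0.108) and GMP 4 (0.103). Csf2rb lost it without CMP 1 (0.0972), CMP 2 (0.0855), CMP 4 (0.0515), GMP 3 (0.111) and GMP 4 (0.106), Il5ra without CMP 4 (0.0554), GMP 3 (0.0591) and GMP 4 (0.0588), and Il17rb without GMP 3 (0.052). The M-CSF receptor Csf1r, of monocytes, measured 137, 156, 183 and 174 CPM in CMP and 211, 231, 191 and 172 CPM in GMP (log2 change 0.31 ± 0.12, adjusted p = 0.0728), and it passed without GMP 4 (0.047). The chains Il3ra (0.19 ± 0.13, adjusted p = 0.308) and Il6ra (0.14 ± 0.17, adjusted p = 0.571) were not called.

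Among the receptors that fell was Flt3, the receptor of multipotent, lymphoid and dendritic progenitors. It measured 227, 238, 407 and 375 CPM in CMP and 36.1, 39.2, 43 and 35.6 CPM in GMP (log2 change -3.02 ± 0.20, adjusted p = 1.12e-05). The interleukin 7 receptor Il7r of lymphoid progenitors measured 3.89, 4.14, 7.4 and 7.43 and 0.155, 0.21, 0.176 and 0.437 CPM (log2 change -4.54 ± 0.41, adjusted p = 6.7e-05). Every GMP library lay far below every CMP library in both genes. The erythropoietin receptor Epor fell (-3.29 ± 0.45, adjusted p = 0.000688). Falls were also called for Il1r1 (-2.61 ± 0.27, adjusted p = 0.000122), Lifr (-2.86 ± 0.43, adjusted p = 0.00109), Il18r1 (-2.42 ± 0.18, adjusted p = 1.91e-05), Il27ra (-2.04 ± 0.15, adjusted p = 1.71e-05), Tgfbr2 (-1.01 ± 0.15, adjusted p = 0.00105) and Il17ra (-0.83 ± 0.18, adjusted p = 0.00653).

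**Figure D3:**
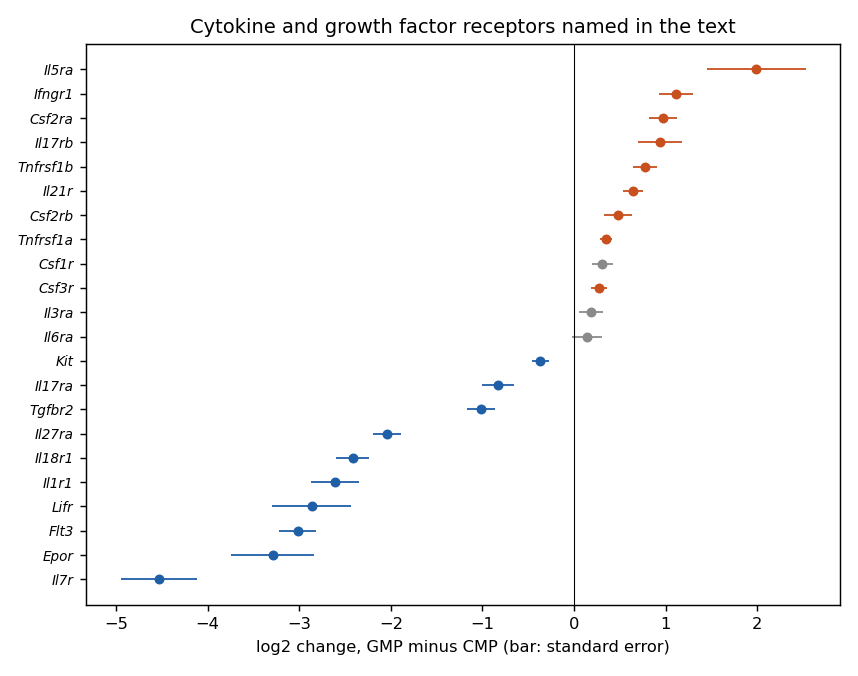
Receptors for cytokines and growth factors that the text names are ordered by log2 change (x axis, GMP minus CMP); bars are standard errors, orange marks receptors called higher, blue called lower, grey not called. Il7r, Epor and Flt3 lie at the bottom, and Il5ra, with a wide bar, and Ifngr1 at the top.

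Among the signalling partners of these receptors, 2 of 30 rose and 13 fell. The feedback inhibitor Socs3 measured 34.6, 26.8, 45.4 and 44.3 CPM in CMP and 4.06, 4.74, 3.63 and 4.89 CPM in GMP (log2 change -3.13 ± 0.19, adjusted p = 6.41e-06). Cish, a feedback inhibitor of STAT5 signals, fell (-1.8 ± 0.20, adjusted p = 0.000184), the kinase Pim2 (-1.33 ± 0.12, adjusted p = 6.16e-05), and Jak3, the kinase of the common gamma chain, (-0.99 ± 0.11, adjusted p = 0.000183). The members that rose were the adaptors of activating immune receptors, Fcer1g (0.92 ± 0.11, adjusted p = 0.000366) and Tyrobp (0.51 ± 0.08, adjusted p = 0.00131).

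Receptors that recognise microbes moved the other way, with 13 of 37 tested members higher, 3 lower and a median of 0.63. The number that rose was 8 without GMP library 3 or GMP library 4. Trem2, a lipid-sensing receptor of macrophages that signals through Tyrobp, measured 2.02, 1.94, 1.88 and 1.98 CPM in CMP and 9.25, 9.08, 9.14 and 9.55 CPM in GMP (log2 change 2.24 ± 0.13, adjusted p = 5.9e-06). The libraries of each group were nearly equal. The lectin Clec5a, which also pairs with Tyrobp-type adaptors, measured 24.5, 31.2, 13.6 and 13.9 and 65, 60.1, 86.4 and 95.2 CPM (log2 change 1.88 ± 0.28, adjusted p = 0.00103). The beta-glucan receptor Clec7a rose by 0.92 ± 0.11 (adjusted p = 0.000368) and Tlr2, a sensor of bacterial lipopeptides, by 0.46 ± 0.09 (adjusted p = 0.00473). The members that fell were the RNA sensor Tlr3 (-2.73 ± 0.33, adjusted p = 0.000354), the fatty acid receptor Cd36 (-2.44 ± 0.34, adjusted p = 0.000736) and Cd180 (-0.80 ± 0.15, adjusted p = 0.00404).

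Of 48 chemokine receptors and adhesion molecules, 9 rose and 18 fell. Cxcr4, which retains cells in the marrow, measured 93.1, 96, 93.9 and 95.9 CPM in CMP and 148, 138, 144 and 155 CPM in GMP (log2 change 0.63 ± 0.06, adjusted p = 0.000124). S1pr1, which guides exit to the blood, measured 5.02, 5.29, 10 and 8.74 and 0.826, 0.559, 1.02 and 0.9 CPM (log2 change -3.13 ± 0.30, adjusted p = 9.36e-05). The groups did not overlap in either gene. The integrin chain Itga1 rose by 1.8 ± 0.24 (adjusted p = 0.000547), the chemokine receptor Ccr1 by 1.77 ± 0.29 (adjusted p = 0.00165) and the inhibitory receptor Sirpa by 0.64 ± 0.07 (adjusted p = 0.000171), while the integrin chain Itgb7 fell (-1.49 ± 0.14, adjusted p = 7.36e-05).

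Most listed genes of the primary granule and its processing partners rose. Of 36 listed genes 35 were tested, 32 rose and 0 fell, with a median of 0.96. In the fit with the library number as a block 29 rose. Over all tested genes 12.7% were called higher. The list was chosen with earlier results of these data known, so its count is a description. The main serine proteases of the granule and its peroxidase are given here with the 250 bases upstream of their start sites, because these genes moved together (RefSeq, build GRCm38.p6). Capitals mark the letters of a PU.1-type ETS motif, GGAAGT, and of a MYB motif, AACNGT, searched on both strands.
Mpo, chr11:87793534-87793783, plus strand: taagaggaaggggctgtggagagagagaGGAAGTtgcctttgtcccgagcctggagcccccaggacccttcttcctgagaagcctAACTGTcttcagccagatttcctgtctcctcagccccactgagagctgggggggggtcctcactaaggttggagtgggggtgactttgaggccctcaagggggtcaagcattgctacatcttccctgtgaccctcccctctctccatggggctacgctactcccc
Elane, chr10:79886062-79886311, plus strand: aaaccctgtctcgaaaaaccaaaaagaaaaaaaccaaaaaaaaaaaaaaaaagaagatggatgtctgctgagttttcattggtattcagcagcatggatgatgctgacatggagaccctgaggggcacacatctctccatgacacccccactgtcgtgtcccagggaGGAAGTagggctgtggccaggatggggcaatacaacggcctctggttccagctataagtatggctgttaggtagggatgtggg
Prtn3, chr10:79879417-79879666, plus strand: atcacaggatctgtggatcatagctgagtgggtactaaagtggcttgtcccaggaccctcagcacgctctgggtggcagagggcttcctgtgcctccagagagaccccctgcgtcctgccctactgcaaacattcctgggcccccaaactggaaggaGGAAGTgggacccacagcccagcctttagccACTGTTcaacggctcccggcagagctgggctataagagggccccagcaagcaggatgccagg
Ctsg, chr14:56102575-56102824, minus strand: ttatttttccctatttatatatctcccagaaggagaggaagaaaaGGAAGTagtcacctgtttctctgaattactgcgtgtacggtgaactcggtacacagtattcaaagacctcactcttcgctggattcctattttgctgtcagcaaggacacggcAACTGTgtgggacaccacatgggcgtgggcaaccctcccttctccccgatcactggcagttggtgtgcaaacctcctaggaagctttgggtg
All 4 windows held GGAAGT, beginning 222 bases upstream of the start in Mpo, 83 in Elane, 93 in Prtn3 and 205 in Ctsg, whereas 19.7% of all 32851 promoter windows of the same length held it. The MYB letters were in Mpo (165 bases upstream), Prtn3 (62) and Ctsg (92), and in 22.3% of all windows, and matches of the motifs did not overlap. Windows of 30 of the 36 listed granule genes were found, 37 windows in all, and 14 (37.8%) held GGAAGT. The C/EBP letters TTNCNNAA were in none of the 4 windows, in 17 of the 37 (45.9%) and in 36.8% of all, and the GATA letters AGATAA were in 1 of the 37 and in 9.99% of all. These matches describe letters and not bound sites.

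Mpo, the myeloperoxidase of the granule (ENSMUSG00000009350.13, chromosome 11, 87793581 to 87804413, plus strand), measured 13019, 14909, 7967 and 8146 CPM in CMP and 22544, 23761, 23809 and 24461 CPM in GMP (log2 change 1.10 ± 0.20, adjusted p = 0.00276). Elane, neutrophil elastase (ENSMUSG00000020125.7, chromosome 10, 79886247 to 79888215, plus strand), measured 3446, 3901, 1023 and 1164 and 7362, 7632, 7288 and 7167 CPM (log2 change 1.63 ± 0.40, adjusted p = 0.0136). Prtn3, proteinase 3, lies next to Elane (ENSMUSG00000057729.12, chromosome 10, 79874476 to 79883174, plus strand) and measured 2903, 3228, 1449 and 1670.1 and 5594, 5428, 5974 and 5904 CPM (log2 change 1.31 ± 0.24, adjusted p = 0.0029). In these genes GMP libraries lay close together, while CMP libraries 1 and 2 held clearly more than CMP libraries 3 and 4. Ctsg, cathepsin G (ENSMUSG00000040314.2, chromosome 14, 56099881 to 56102574, minus strand), measured 1838, 1948, 887 and 1015 and 3150.4, 2683, 3780.4 and 3734 CPM with the same order of libraries in CMP (log2 change 1.23 ± 0.25, adjusted p = 0.00579). CMP libraries 1 and 2 also held more Fcgr3, the gate's own gene, at the values given above, and its part in the granule genes was not tested. The positions of these genes are those of GENCODE M21, whose starts differ from the RefSeq starts used for the printed windows. The Prtn3 window lies inside the GENCODE span of the gene, and the windows of Mpo and Elane run past the GENCODE start.

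**Figure D4:**
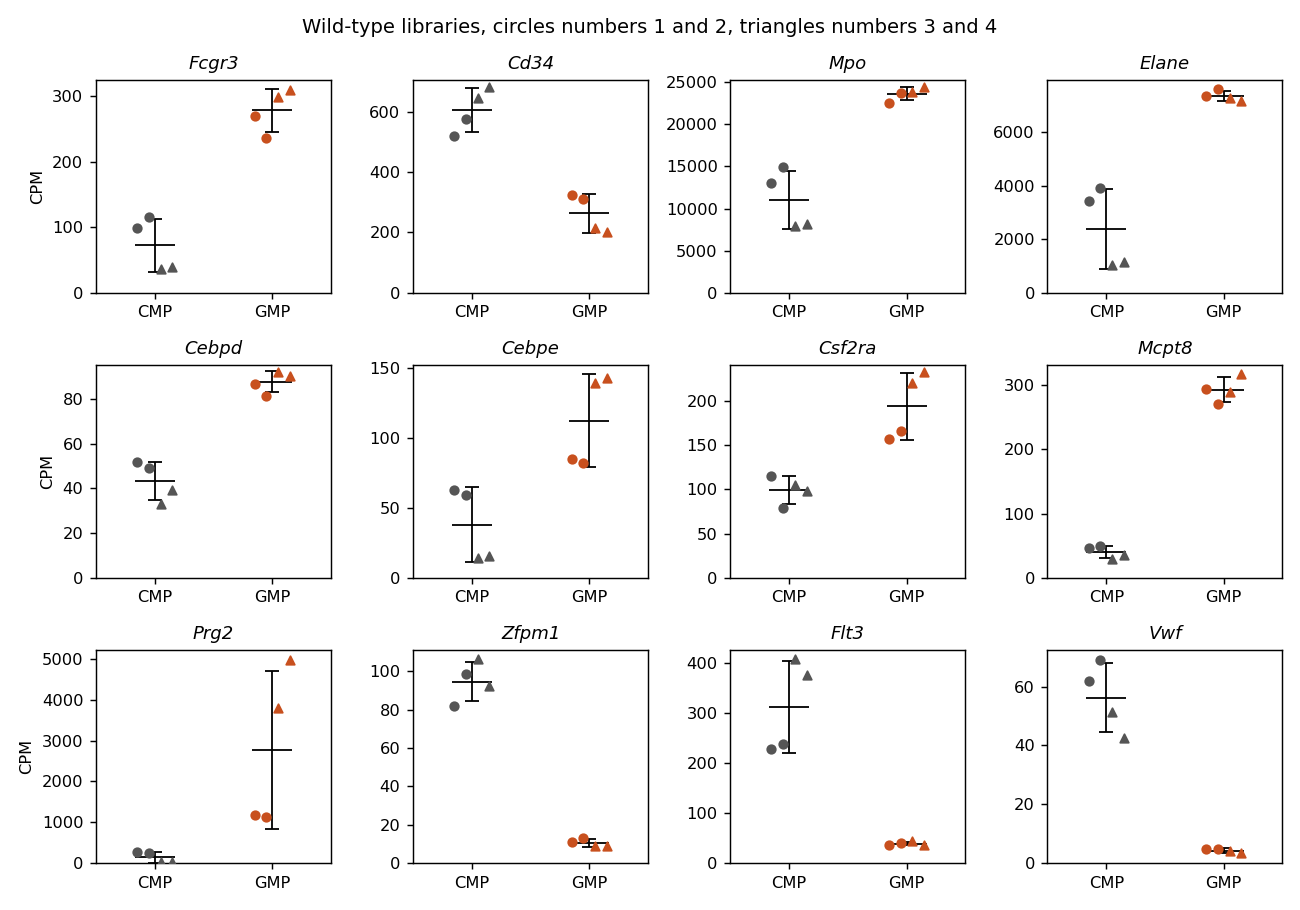
CPM of 12 genes in each library (circles, libraries 1 and 2; triangles, libraries 3 and 4), with the mean and the standard deviation over 4 libraries as bar and whiskers and every axis starting at 0. Mpo and Elane show CMP libraries 3 and 4 below CMP libraries 1 and 2, Prg2 shows GMP libraries 3 and 4 above GMP libraries 1 and 2, and Zfpm1, Flt3 and Vwf show every GMP library far below every CMP library.

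Processing partners of the granule rose as well. Ctsc, the peptidase that activates the serine proteases, measured 53.4, 55.5, 56.5 and 58.3 CPM in CMP and 104, 105, 117 and 116 CPM in GMP (log2 change 0.98 ± 0.07, adjusted p = 1.68e-05), with little spread in either group. Its inhibitor Cst7 measured 138, 165, 106 and 123 and 259, 254, 321 and 303 CPM (log2 change 1.10 ± 0.14, adjusted p = 0.000406). Srgn, the proteoglycan that packs the proteases, rose by 1.05 ± 0.24 (adjusted p = 0.0101), and Serpinb1a, their cytosolic inhibitor, by 0.80 ± 0.18 (adjusted p = 0.00857). Rab27a, a GTPase of granule release, rose by 0.83 ± 0.12 (adjusted p = 0.00104), lysozyme Lyz2 by 0.96 ± 0.14 (adjusted p = 0.000777), haptoglobin Hp by 1.48 ± 0.24 (adjusted p = 0.00165) and the annexin Anxa3 by 1.23 ± 0.22 (adjusted p = 0.00269). Alas1, which starts the synthesis of the heme that Mpo carries, measured 420.2, 424, 213 and 220.3 CPM in CMP and 807, 859, 909.7 and 899 CPM in GMP (log2 change 1.44 ± 0.23, adjusted p = 0.00148). The glutathione transferases Gstm1 (1.78 ± 0.28, adjusted p = 0.00137) and Mgst1 (1.37 ± 0.17, adjusted p = 0.000385) rose too.

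Some granule genes lost their call in other fits. The protease Prss57 (1.12 ± 0.30, adjusted p = 0.0187), the membrane protein Ms4a3 of GMP (1.53 ± 0.40, adjusted p = 0.0169), Igsf6 (1.24 ± 0.34, adjusted p = 0.0231) and the granule membrane protein Cd63 (1.30 ± 0.26, adjusted p = 0.00511) gave adjusted p = 0.0792, adjusted p = 0.0677, adjusted p = 0.0664 and adjusted p = 0.0757 with the library number as a block. Prss57 lost its call without CMP 4 (0.0511), Ms4a3 without CMP 4 (0.0553) and GMP 1 (0.057) and Igsf6 without CMP 3 (0.0531), CMP 4 (0.0523), GMP 1 (0.0625) and GMP 4 (0.0502). The tested members that were not called were the lysosomal proteases and hydrolases Ctsd (0.29 ± 0.11, adjusted p = 0.0791; adjusted p = 0.0296 with the block) and Gaa (0.12 ± 0.10, adjusted p = 0.387) and the secretion adaptor Sytl1 (0.11 ± 0.20, adjusted p = 0.728).

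Genes of late neutrophils rose in part. Of 42 listed, 33 were tested, 19 rose and 1 fell, with a median of 1.58. The count of higher genes was 12 with the block, 11 without CMP library 3, GMP library 3 or GMP library 4, and 12 without CMP library 4. Ly6c2, a surface protein of monocytes and neutrophils with near copies in the genome, measured 783, 863, 369.5 and 405 CPM in CMP and 2704, 2425, 2227 and 2262 CPM in GMP (log2 change 1.99 ± 0.27, adjusted p = 0.000596). Lcn2, the siderophore-binding lipocalin of the secondary granule, measured 10.6, 14.1, 10.5 and 12.7 and 22.9, 21, 49.4 and 50.5 CPM (log2 change 1.59 ± 0.29, adjusted p = 0.00321). Cd177, a surface protein of neutrophils, measured 1.73, 1.96, 0.92 and 0.812 and 4.61, 6.08, 15.1 and 15.1 CPM (log2 change 2.92 ± 0.47, adjusted p = 0.00148). GMP libraries 3 and 4 held more of Lcn2 and Cd177 than GMP libraries 1 and 2. Chi3l3 measured 12, 11.5, 2.38 and 1.98 CPM in CMP and 40.6, 39.1, 184 and 193 CPM in GMP, parted by library number in both groups (log2 change 4.04 ± 0.79, adjusted p = 0.00446; adjusted p = 0.145 with the block). Anxa1, an annexin that limits inflammation, rose by 1.35 ± 0.21 (adjusted p = 0.00131). Padi4, the enzyme that citrullinates histones, fell (-0.80 ± 0.17, adjusted p = 0.00749).

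The calprotectin genes, chosen after their values were seen, parted by library number. S100a8 measured 144, 179, 7.22 and 9.54 CPM in CMP and 183, 167, 337 and 451 CPM in GMP (log2 change 1.74 ± 0.91, adjusted p = 0.182). S100a9 measured 35.4, 39.6, 6.83 and 9.67 and 42, 40.5, 129 and 149.9 CPM (log2 change 1.98 ± 0.64, adjusted p = 0.042; adjusted p = 0.298 with the block), and its call was lost without CMP 1 (0.0809), CMP 3 (0.0891), CMP 4 (0.131), GMP 1 (0.0626), GMP 3 (0.0986) and GMP 4 (0.105). CMP libraries 1 and 2 held about the level of GMP libraries 1 and 2 in both genes, whereas CMP libraries 3 and 4 were far lower.

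The subunits of the phagocyte NADPH oxidase, which makes superoxide, rose with 8 of 9 tested members higher, 0 lower and a median of 0.75. The catalytic subunit Cybb measured 49.7, 52.9, 43.9 and 37.4 CPM in CMP and 120.4, 121, 179 and 175 CPM in GMP (log2 change 1.69 ± 0.17, adjusted p = 9.44e-05). Its partner Cyba rose by 0.75 ± 0.15 (adjusted p = 0.00508), and the cytosolic subunits Ncf1 by 0.78 ± 0.15 (adjusted p = 0.00383) and Ncf4 by 0.86 ± 0.09 (adjusted p = 0.000147). The GTPase Rac2 rose by 0.50 ± 0.08 (adjusted p = 0.00162).

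Genes of the machinery that makes secreted proteins rose in part. In ER translocation and glycan transfer 29 of 40 tested genes rose and 0 fell (median 0.45), among ER chaperones 29 of 44 rose and 0 fell (median 0.54), and in transport between ER and Golgi 29 of 53 rose and 0 fell (median 0.36). Ddost, a subunit of the oligosaccharyltransferase, measured 444, 478, 380.2 and 393 CPM in CMP and 633, 660.0, 707 and 659.9 CPM in GMP (log2 change 0.65 ± 0.09, adjusted p = 0.000702). The translocon genes Ssr1 (0.67 ± 0.09, adjusted p = 0.000731), Ssr2 (0.66 ± 0.10, adjusted p = 0.00095) and Sec61b (0.60 ± 0.10, adjusted p = 0.00177) and the oligosaccharyltransferase gene Rpn2 (0.53 ± 0.09, adjusted p = 0.00156) rose alike. Among chaperones, Manf measured 189, 166, 139 and 171 CPM in CMP and 285, 255, 309.6 and 311 CPM in GMP (log2 change 0.80 ± 0.11, adjusted p = 0.000552). Calreticulin Calr, which folds the Mpo precursor, rose by 0.69 ± 0.10 (adjusted p = 0.000998), calnexin Canx by 0.56 ± 0.08 (adjusted p = 0.00103), the disulfide isomerase Pdia6 by 0.69 ± 0.10 (adjusted p = 0.000695) and Sdf2l1 by 0.84 ± 0.12 (adjusted p = 0.000698). Of the transport genes, the cargo receptor Tmed3 rose by 0.95 ± 0.14 (adjusted p = 0.00101), the KDEL receptor Kdelr2 by 0.94 ± 0.15 (adjusted p = 0.00156) and the COPII coat gene Sec13 by 0.49 ± 0.07 (adjusted p = 0.000838).

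Lysosomal genes rose in 23 of 40 cases and fell in 1, with a median of 0.36. The membrane protein Lamp1 measured 299, 317, 272 and 282 CPM in CMP and 519, 538, 484 and 482 CPM in GMP (log2 change 0.79 ± 0.08, adjusted p = 9.77e-05). M6pr, which sorts hydrolases to the lysosome, rose by 0.66 ± 0.10 (adjusted p = 0.000908), the protease Ctsb by 0.65 ± 0.09 (adjusted p = 0.000779) and the galactosidase Gla by 0.96 ± 0.14 (adjusted p = 0.000857). The number that fell was 2 without CMP library 1 or CMP library 2.

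Of 20 tested genes of eosinophils, 16 rose and 3 fell, with a median of 1.79, and 7 rose with the library number as a block. Over libraries 1 and 2 alone their median was 0.74, and that of basophil and mast cell genes 0.76. Prg2, the major basic protein of the eosinophil granule, measured 275, 234, 22.1 and 25.4 CPM in CMP and 1178, 1127, 3802 and 4972 CPM in GMP (log2 change 4.32 ± 0.94, adjusted p = 0.00768; adjusted p = 0.152 with the block). Epx measured 62.9, 68.2, 7.61 and 9.46 and 342, 363, 1238 and 1494 CPM (log2 change 4.54 ± 0.87, adjusted p = 0.0039; adjusted p = 0.123 with the block). CMP libraries 1 and 2 held more, and GMP libraries 1 and 2 less, than libraries 3 and 4 of the same group. The groups did not overlap, which the rule that picked Prg2 and Epx required. Ear1 measured 2.56, 3.26, 1.23 and 0.5 CPM in CMP and 35.6, 33.2, 298 and 453 CPM in GMP (log2 change 6.78 ± 1.06, adjusted p = 0.00129). With the block, Ear1 gave adjusted p = 0.0857, Ear2 adjusted p = 0.0629, Ear3 adjusted p = 0.067, Ear6 adjusted p = 0.122, Ear7 adjusted p = 0.0948 and Prg3 adjusted p = 0.11. The Ear genes are near copies of each other, so the split of reads among them is uncertain. Alox15 measured 0.302, 0.718, 0.464 and 0.723 CPM in CMP and 6.21, 7.53, 44.8 and 50.1 CPM in GMP (log2 change 5.62 ± 0.78, adjusted p = 0.000731), and the ribonuclease Rnase12 rose by 2.50 ± 0.30 (adjusted p = 0.000314). Of the listed members that fell, Gata1 and Id2 have their values above.

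Genes of basophils and mast cells rose in 14 of 27 cases and fell in 5, with a median of 1.05. Mcpt8, a protease of basophils, measured 45.8, 49.3, 29.5 and 35.7 CPM in CMP and 294, 271, 289 and 317 CPM in GMP (log2 change 2.87 ± 0.16, adjusted p = 4.53e-06). Prss34, another basophil protease, measured 60.9, 69.6, 19.9 and 25.4 and 689.5, 692, 647 and 594 CPM (log2 change 3.90 ± 0.39, adjusted p = 0.000112). In contrast to the eosinophil genes, GMP libraries were close to each other in both. CMP libraries 1 and 2 held more of both than CMP libraries 3 and 4. The protease Cpa3 rose by 1.5 ± 0.15 (adjusted p = 0.000102), the lipoxygenase Alox5 by 1.33 ± 0.11 (adjusted p = 3.7e-05), the steroid enzyme Cyp11a1 by 2.40 ± 0.18 (adjusted p = 1.71e-05) and Hdc, which makes histamine, by 1.38 ± 0.22 (adjusted p = 0.00153). The monoamine transporter Slc18a2 (-1.57 ± 0.11, adjusted p = 1.51e-05) and the signalling regulator Rgs1 (-1.70 ± 0.15, adjusted p = 5.14e-05) fell.

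Genes of monocytes and macrophages were mixed, with 12 of 39 tested members higher, 6 lower and a median of 0.33. Fn1, fibronectin, measured 4.62, 5.46, 5.89 and 3.93 CPM in CMP and 37.8, 42.3, 43 and 34.8 CPM in GMP (log2 change 2.99 ± 0.15, adjusted p = 2.33e-06). Emr1, the macrophage antigen F4/80, measured 3.76, 4.48, 3.93 and 3.58 and 13.1, 9.86, 15.6 and 16.7 CPM (log2 change 1.81 ± 0.18, adjusted p = 0.000102). The groups were far apart in both genes, at low levels in CMP. Members that fell included Nr4a1, a nuclear receptor of patrolling monocytes (188, 139, 189 and 168 CPM in CMP and 16.4, 18.1, 10.8 and 10.4 CPM in GMP; log2 change -3.62 ± 0.21, adjusted p = 4.53e-06), and the lipid carrier Apoe (-1.34 ± 0.18, adjusted p = 0.000645). Nr4a1 is also an immediate early gene, a list in which 15 of 26 fell and 0 rose (median -0.60), with Egr3 at -2.57 ± 0.29 (adjusted p = 0.000205).

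The genes of megakaryocytes and platelets fell in 29 of 40 tested cases and rose in 2, with a median of -2.06. Vwf, von Willebrand factor, measured 62, 69.1, 51.5 and 42.4 CPM in CMP and 4.68, 4.88, 3.95 and 3.23 CPM in GMP (log2 change -3.75 ± 0.19, adjusted p = 3.12e-06). The thrombin receptor F2r measured 39.3, 44.8, 51.2 and 47.1 and 2.17, 1.73, 3.07 and 2.98 CPM (log2 change -4.19 ± 0.20, adjusted p = 1.93e-06). Mmrn1, multimerin of the platelet granule, measured 29.1, 33, 19.1 and 18.9 and 1.24, 0.796, 1.09 and 0.54 CPM (log2 change -4.77 ± 0.30, adjusted p = 8.17e-06). Every GMP library lay far below every CMP library in these 3 genes. The kinase substrate Plek fell (-2.07 ± 0.10, adjusted p = 1.86e-06), the caveolar protein Sdpr (-4.41 ± 0.20, adjusted p = 1.86e-06) and the GTPase Rab27b, in the group where Rab27a rose, (-3.08 ± 0.18, adjusted p = 4.53e-06). The members that rose were the protease inhibitor Serpine2 (1.14 ± 0.25, adjusted p = 0.00757) and coagulation factor F5 (1.02 ± 0.34, adjusted p = 0.047; adjusted p = 0.118 with the block). F5 lost its call without CMP 1 (0.0624), CMP 3 (0.12), CMP 4 (0.0856), GMP 1 (0.0818), GMP 2 (0.0653), GMP 3 (0.116) and GMP 4 (0.0853).

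Of 46 listed erythroid genes 40 were tested, 24 fell and 2 rose, with a median of -1.34. Car2, carbonic anhydrase, measured 110.0, 123, 181 and 196 CPM in CMP and 22.4, 23.2, 22.7 and 21.8 CPM in GMP (log2 change -2.76 ± 0.18, adjusted p = 1.07e-05). Car1, its erythroid relative, measured 19.7, 22.6, 17.4 and 21.8 CPM in CMP and 0.0688, 0, 0.269 and 0.103 CPM in GMP (log2 change -7.36 ± 0.54, adjusted p = 1.7e-05). The urea transporter Slc14a1 measured 43.8, 44.2, 49.1 and 50.3 and 4.27, 5.11, 4.39 and 3.42 CPM (log2 change -3.45 ± 0.13, adjusted p = 1.37e-06), and Hemgn, a nuclear protein of erythroid cells, fell (-3.0 ± 0.24, adjusted p = 2.9e-05). Rhag, of the Rhesus complex, was at 0 in every GMP library and thus at least 37.4-fold lower, against a floor of 3 fragments over the group, and Add2, of the membrane skeleton, at least 31.8-fold lower by the same measure. The members that rose were the transferrin receptor Tfrc (0.41 ± 0.13, adjusted p = 0.0427) and Fech, the last enzyme of heme synthesis (0.53 ± 0.12, adjusted p = 0.0109). Tfrc lost its call without CMP 3 (0.12), CMP 4 (0.0679), GMP 1 (0.0996), GMP 2 (0.088), GMP 3 (0.0747) and GMP 4 (0.0611).

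Genes of lymphoid-primed progenitors fell in 22 of 27 cases and rose in 0, with a median of -1.18. Dntt, which adds bases to rearranging antigen receptor genes, measured 53.3, 71.7, 161 and 185 CPM in CMP and 0.12, 0.293, 1.35 and 1.35 CPM in GMP (log2 change -7.16 ± 0.71, adjusted p = 9.83e-05). CMP libraries 3 and 4 held more of it than CMP libraries 1 and 2. The GTPase Gimap6 measured 33.9, 34.2, 51.4 and 55.4 and 3.13, 2.38, 3.38 and 2.84 CPM (log2 change -3.90 ± 0.21, adjusted p = 4e-06). The B cell factor Ebf1, at 0 in every GMP library, was at least 9.29-fold lower. Of 17 tested B cell genes 8 fell and 1 rose, with the inhibitory receptor Cd22 at -4.43 ± 0.33 (adjusted p = 1.71e-05).

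T and NK cell genes fell in 19 of 23 tested cases and rose in 0, with a median of -3.30. Over all tested genes 16.5% were called lower. Genes this low can pass the count filter through CMP alone, which favours a fall, so this count is only a description. Ncr1 rested on 4.75 fragments over the GMP libraries. The NK receptor Ncr1 fell from 5.16, 5.12, 2.62 and 2.68 CPM to 0.138, 0, 0 and 0.141 CPM (log2 change -5.88 ± 0.88, adjusted p = 0.00105), the interleukin 2 receptor chain Il2rb (-4.89 ± 0.53, adjusted p = 0.000168) and the factor Gata3 (-4.87 ± 0.43, adjusted p = 6.03e-05). Cd3g, a chain of the T cell receptor complex, was at 0 in every GMP library and at least 23.9-fold lower. In CMP Gata3 measured 4.8, 4.61, 4.71 and 4.47 CPM and Il2rb 14.5, 16.3, 13.8 and 8.62 CPM, and the whole list summed to 114 to 124 CPM in CMP and 27 to 38.1 CPM in GMP.

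Dendritic cell genes fell in 25 of 28 tested cases and rose in 0, with a median of -2.41, and 8 of 10 MHC class II genes fell and 0 rose (median -2.12). Cd74, the invariant chain, measured 214, 240.5, 261 and 303 CPM in CMP and 28.2, 29.9, 35 and 37.6 CPM in GMP (log2 change -2.96 ± 0.14, adjusted p = 1.86e-06). H2-Aa, a class II chain, measured 92.1, 100.3, 111 and 120.0 and 10.7, 12, 15.9 and 16.2 CPM (log2 change -2.95 ± 0.16, adjusted p = 3.71e-06). Ciita, the activator of class II transcription, measured 11.6, 11.4, 15.6 and 11.1 and 0.757, 0.559, 1.05 and 1.08 CPM (log2 change -3.84 ± 0.25, adjusted p = 8.5e-06). The 3 genes of 1 pathway thus lay lower together in every GMP library. The receptor Clec9a of cross-presenting dendritic cells fell (-3.01 ± 0.24, adjusted p = 3.03e-05) and the lectin Klrd1 (-4.69 ± 0.40, adjusted p = 4.44e-05). Siglech measured 1.6, 1.83, 9.36 and 8.96 CPM in CMP and 0, 0, 0.139 and 0.283 CPM in GMP (log2 change -5.59 ± 1.04, adjusted p = 0.00343).

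Of 30 genes of G2 and mitosis 21 rose and 0 fell (median 0.35), and of 34 replication genes 12 rose and 0 fell (median 0.24). The number of replication genes that rose was 20 with the block, 8 with upper quartile factors and 8 to 15 with 1 library left out. Cdk1, the mitotic kinase, measured 85.7, 91.8, 95.1 and 109 CPM in CMP and 144, 133, 145 and 151 CPM in GMP (log2 change 0.59 ± 0.09, adjusted p = 0.001), and its cyclin Ccnb1 rose by 0.53 ± 0.09 (adjusted p = 0.00174). Rrm2, which makes deoxynucleotides, rose by 0.90 ± 0.10 (adjusted p = 0.000237). Of 13 tested cyclin-dependent kinase inhibitors, D-type cyclins and their partners 5 fell and 1 rose, with a median of -0.24. Those that fell were the inhibitors Cdkn1a (-0.85 ± 0.21, adjusted p = 0.0139), Cdkn1b (-0.50 ± 0.09, adjusted p = 0.0025) and Cdkn1c (-1.83 ± 0.29, adjusted p = 0.00152) and the cyclins Ccnd1 (-1.62 ± 0.20, adjusted p = 0.000353) and Ccnd2 (-0.46 ± 0.08, adjusted p = 0.00169). The factor E2f1 rose by 0.21 ± 0.07 (adjusted p = 0.0431), and its call was lost without CMP 1 (0.0831), CMP 2 (0.0759), CMP 3 (0.0972), GMP 1 (0.109), GMP 2 (0.101) and GMP 4 (0.0681) and with upper quartile factors. Of 60 ribosomal protein genes 0 were called by edgeR or DESeq2, and 1 had an unadjusted p under 0.05 in edgeR, with a median of 0.02.

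In metabolism, 17 of 26 genes of glycolysis and the pentose phosphate path rose and 3 fell (median 0.49). Pgd, which makes NADPH, measured 354, 364, 220.5 and 235 CPM in CMP and 579, 574, 676 and 664 CPM in GMP (log2 change 1.09 ± 0.17, adjusted p = 0.00131), and the aldolase Aldoa rose by 0.71 ± 0.09 (adjusted p = 0.000357). The members that fell were the glucose transporter Slc2a3 (-1.13 ± 0.10, adjusted p = 4.37e-05), Pfkm (-0.92 ± 0.14, adjusted p = 0.00118) and Aldoc (-1.79 ± 0.23, adjusted p = 0.000504). Of 28 antioxidant genes 11 rose and 1 fell, with the glutathione reductase Gsr at 1.55 ± 0.26 (adjusted p = 0.00196) and the quinone reductase Nqo1 at -1.06 ± 0.35 (adjusted p = 0.0438). The call of Nqo1 was lost without CMP 1 (0.0805), CMP 3 (0.107), CMP 4 (0.0874), GMP 1 (0.103), GMP 2 (0.0897) and GMP 4 (0.0598). Of 46 nuclear genes of oxidative phosphorylation 20 rose and 0 fell (median 0.27). That count was 6 with upper quartile factors, 29 with the block, and 9, 7, 9, 11 and 9 without CMP library 1, CMP library 3, GMP library 1, GMP library 3 and GMP library 4. The survival factor Bcl2 fell (-1.14 ± 0.11, adjusted p = 7.36e-05).

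Taken by library number, the list medians below had a like direction, and several had an unlike size. Over libraries 1 to 4, the median difference on the log2(CPM + 0.1) scale was 0.68, 0.57, 1.23 and 1.09 for primary granule genes, 0.51, 0.33, 2.51 and 2.48 for late neutrophil genes, and 1.12, 0.75, 2.90 and 3.09 for eosinophil genes. For stem cell genes it was -1.97, -1.87, -2.60 and -2.58, and for MHC class II genes -1.76, -1.47, -2.36 and -2.56. Basophil and mast cell genes (0.69, 0.79, 0.68 and 0.78) and megakaryocyte genes (-2.02, -1.94, -1.94 and -1.89) gave nearly equal values. Of the 4118 called genes, 4113 had the same sign over libraries 1 and 2 alone and 4118 over libraries 3 and 4 alone. These libraries also entered the calls, which favours genes of a like sign, so no conclusion is drawn from these counts. Irf8, which was not called, changed by 0.24 over libraries 1 and 2 and by -0.51 over libraries 3 and 4. Vcam1, an adhesion molecule, parted by number in CMP but not in GMP, with 92.8, 102, 5.07 and 5.03 CPM in CMP and 117, 109, 113 and 119 CPM in GMP (log2 change 1.17 ± 0.85, adjusted p = 0.338). Differences between the pairs of numbers were not tested, since the numbers were grouped with the data in view.

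**Figure D5:**
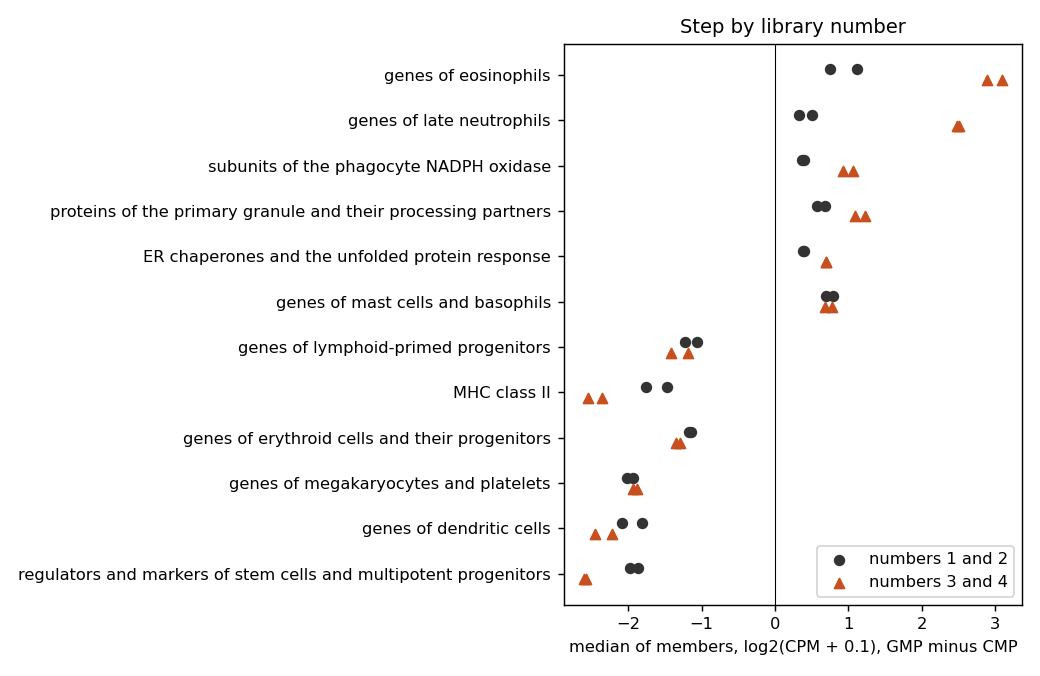
For 12 gene lists, the median over tested members of log2(CPM + 0.1) in a GMP library minus that in the CMP library of the same number is on the x axis (circles, numbers 1 and 2; triangles, numbers 3 and 4). Eosinophil and late neutrophil genes lie further right for numbers 3 and 4, and the medians of basophil and megakaryocyte genes nearly coincide.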

How the data were processed

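RNA of 4 CMP and 4 GMP libraries of wild-type bone marrow was compared. Libraries were prepared with a SMARTER mRNA-Seq kit, per the labels' protocols, and the submitters' processing notes name HISAT and mm10; no counting tool is named in the sources used here. The authors deposited 1 whole number per gene symbol (23337 symbols), taken here as an estimated count because 37.3% of values from 1 to 40 are multiples of 4, where an even spread gives 25%; 1 fragment is therefore read as about 4 units. Of the symbols, 25 had turned into dates. No pair of libraries was identical.

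Genes were kept by filterByExpr (minimum count 10) and libraries scaled by TMM (R 4.3.3, edgeR 4.0.16). Filter and fit used the deposited units undivided. With values divided by 4, 12722 genes were tested, 1690 called higher and 2274 lower. A quasi-likelihood fit on group alone over the 8 libraries gave two-sided p-values, adjusted by Benjamini-Hochberg (threshold 0.05), and every adjusted p printed comes from this edgeR fit or its stated alternative. Same-numbered libraries deviated together (correlations of 0.182, 0.204, 0.200 and 0.254 for numbers 1 to 4), each above 0.1. The main fit left this pairing out, and a fit with the library number as a block was run as an alternative. Libraries of the other number in the same set (1 and 2, or 3 and 4) correlated about as much (0.154 to 0.209), so the check does not tell single numbers from sets, and blocked values are given where they change a call. DESeq2 1.42.0, other factors, filters, library subsets and libraries left out 1 at a time were alternatives. Named genes were the 12 with the largest change in each direction (5 CPM or more, no overlap), all regulators, cytokine receptors, gate and primary granule genes, and for other lists up to 8 by p and up to 4 against the list's direction. The list members and lists were chosen with earlier results of these data known. Gene lists are not exclusive, and the same gene counts in each list that holds it. A few genes are not reported here. Positions are from GENCODE M21 (GRCm38).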

Additional observations from a re-analysis of the deposited data

Results flagged for a closer look

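Of 432 groups of 4 libraries behind the named genes and library totals, 12 held a library far from the other 3 by Dixon's ratio of gap to range, above its 95% critical value. Chance flags about 1 in 20 groups, and no explanation was weighed. In CMP these were Cbfa2t3 (0.974, library 4 low), Clec7a (0.848, library 2 high), Ciita (0.89, library 3 high), Trappc2l (0.919, library 4 high) and Trappc4 (0.854, library 4 high). In GMP these were Epor (0.845, library 4 high), Jak3 (0.928, library 2 high), Aqp1 (0.867, library 4 low), Trpc6 (0.959, library 2 at 0), Robo3 (0.944, library 3 high), Kdelr2 (0.836, library 4 high) and Trappc4 (0.841, library 2 low).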

How the results depend on the processing

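The totals of 1793 genes higher and 2325 lower were read under every alternative listed for this comparison. Against a fold of 1.5 (glmTreat) 179 genes were higher and 1062 lower, 1241 in all. The number higher was 1182 with upper quartile factors and 2727 with the pair of numbers (1 and 2, or 3 and 4) as a covariate. With upper quartile factors 8 named genes lost their call, at these adjusted p-values of edgeR. They were Gfi1 (0.052), Fli1 (0.0746), Csf2rb (0.0932), Csf3r (0.1), Tfrc (0.0648), F5 (0.0547), Trappc4 (0.106) and E2f1 (0.192). Left out 1 at a time, libraries gave 1083 to 1940 genes higher, 1747 to 2344 lower and 2830 to 4284 in all, the lowest each time without CMP library 3. With the library number as a replicate block, 2358 genes were higher and 2818 lower, 18 of the named genes lost their call and 2 gained one, and it changed no other call among named genes. DESeq2 gave 2238 higher and 2744 lower. The causes of these shifts were not tested, save that glmTreat asks for a larger change. Irf8 reversed over libraries 1 and 2 alone (0.24), Il3ra (-0.048) and Gaa (-0.0061) over libraries 3 and 4 alone, and Sytl1 over libraries 1 and 2 alone (-0.33) and without GMP library 3 or 4 (leaving out 1 library gave -0.024 to 0.28); none was called in the 8 libraries. Besides the ribosomal proteins, in the 15 lists described with 0 calls in a direction, edgeR gave 1 of 455 members an unadjusted p under 0.05 in that direction and DESeq2 called 1. Genes at a few fragments in GMP have folds that depth limits, and 58 genes called lower were at 0 in every GMP library.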
